A study of Rattus norvegicus with 6 samples.

Results

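Wide constitutive peaks are long stretches of accessible chromatin that were called as open, over all or part of their length, in every library of the study. They were taken from the merged ATAC-seq peaks of INS-1 cells as the peaks outside the mitochondrial chromosome that span at least 1500 bp and were called in all 6 libraries. The rule found 2942 peaks, which is 3.40% of the 86576 peaks called in all 6 libraries and part of 220490 merged peaks in all. Length and the calls chose the members, so neither is a result. The FPKM values were not used in the choice, but a strong peak is easier to call and tends to be called longer, so level and length are tied.

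INS-1 is a rat insulinoma line used as a model of the pancreatic beta cell. WT INS-1 cells and Med14 S983A INS-1 cells, in which a CRISPR knock-in changed a serine that is phosphorylated in Med14, a subunit of Mediator, to alanine, were compared in a medium without serum. They stayed untreated (CON) or received 10 nM Ex-4 or 10 µM FSK for 1 h, with 1 library for each of the 6 conditions. The mutant lines were grown from single sorted cells, and which line gave the libraries is not stated in the sources, so the edit and other differences between the lines cannot be told apart. With 1 library per condition there is no replicate error and no test, and every difference below is between 2 libraries.

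ATAC-seq reads the places where the Tn5 transposase can enter chromatin, so read density marks open DNA. Long open stretches are known from active promoters in CpG islands and from dense groups of enhancers, where several bound factors keep neighbouring nucleosomes away. Mediator links factors bound at enhancers to RNA polymerase II, and Med14 is its central scaffold. FSK (forskolin) activates adenylate cyclase directly, and Ex-4 (exendin-4) activates the GLP-1 receptor, which raises cAMP through the same enzyme.

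Reads in peaks, recovered from the steps between the smallest values, ranged from 134320000 in Med14 S983A CON to 251150000 in WT FSK. The median wide peak held between 5797 and 9389 reads per library, and Poisson counting error at that number was at most 1.31% of the value. Intervals from counts cover counting error alone. The annotation and sequence of rn6, the build of the peak coordinates, were not used here, so no peak is placed in a gene and no promoter sequence is shown.

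The wide peaks had a median length of 1697 bp, an interquartile range from 1579 to 1895 bp and a longest peak of 3550 bp. The longest lay at chr12:22228387-22231937. Its FPKM was 23.5 in WT CON, 23.8 in WT Ex-4 and 22.1 in WT FSK, and 30.4, 29.4 and 28.2 in the Med14 S983A libraries in the same order. Each Med14 S983A value was above all of the WT values. The peak ranked next, chr9:119187852-119191004 of 3152 bp, separated the genotypes far more, with 11.2, 11.6 and 11.3 FPKM in WT and 44.8, 42.1 and 40.6 FPKM in Med14 S983A. At chr16:83822990-83826130, of 3140 bp, FPKM was 36.5, 40.9 and 44.3 in WT and 42.4, 45.4 and 51.4 in Med14 S983A, highest under FSK in both genotypes. The longest peaks thus varied in different ways. At the limit, the member chr1:48221675-48223175 of exactly 1500 bp had 28.1 FPKM in WT CON, and the excluded peak chr17:6682633-6684132 of 1499 bp had 22.7.

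Length is that of a merged peak over the calls of all libraries. It can come from 1 long call per library, from a long call in some libraries only, or from several calls joined together. The number of calls merged was exactly 6, the count when each library gives 1, in 1542 wide peaks (52.4%), 7 to 11 in 1215 and 12 or more in 185. Among the shorter peaks of the same level, described next, exactly 6 calls made up 92.9%. The other 47.6% of the wide peaks were split into separate calls in at least 1 library.

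Among 2969 nuclear peaks of at least 1500 bp, every library made the call in 99.1%, against 38.4% of the shorter ones. Length and the calls define the members, and a merged peak can lengthen as more libraries add calls, so this contrast is not a result. The remaining 27 wide peaks included 10 called in the 3 WT libraries alone and 3 called in the 3 Med14 S983A libraries alone. All 2942 members passed the filter, a mean FPKM of 1 or more, with a lowest mean of 1.10. To separate length from level, each member was set beside the shorter peak called in all 6 libraries whose mean FPKM was nearest to its own, with each shorter peak used once. These 2942 shorter peaks had a median length of 731 bp.

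Wide peaks were strongly accessible. Their median mean FPKM was 23.0, against 8.12 in all shorter peaks called in all 6 libraries, and they covered 5.86% of the merged peak length. Their median FPKM was 21.5 in WT CON, 21.8 in WT Ex-4 and 21.0 in WT FSK. In Med14 S983A it was 24.6 in CON, 24.4 in Ex-4 and 24.6 in FSK, so the 3 mutant medians lay above the 3 WT medians. The share of all reads in peaks that fell into wide peaks was 12.3%, 12.3% and 11.9% in the WT libraries and 14.1%, 13.9% and 14.1% in the Med14 S983A libraries. The nearest shorter peaks took 5.85%, 5.92% and 5.63% in WT and 6.23%, 6.22% and 6.12% in Med14 S983A.

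**Figure D1:**
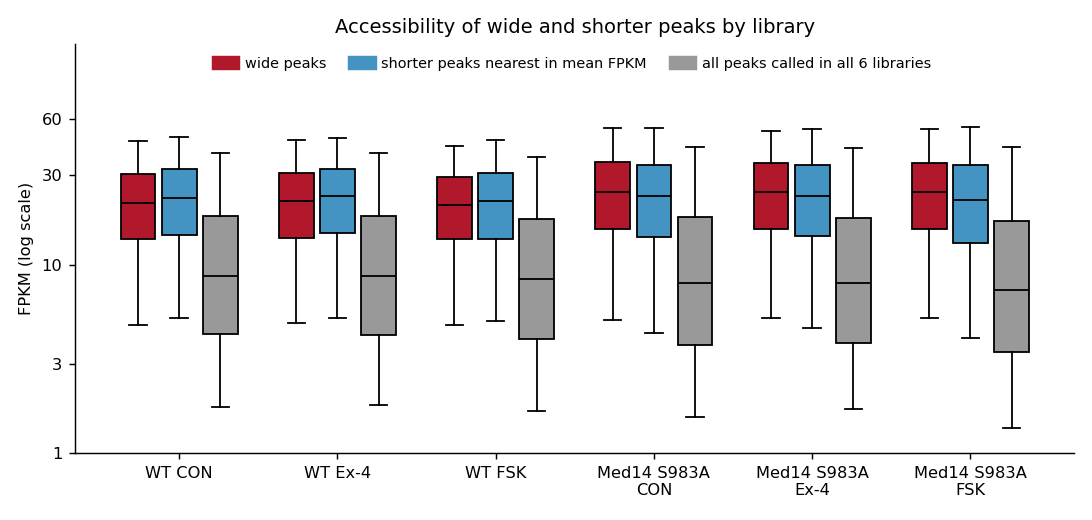
FPKM (log scale) in each of the 6 libraries for the 2942 wide peaks (red), the 2942 shorter peaks nearest in mean FPKM (blue) and the 86465 peaks called in all 6 libraries with a mean FPKM of 1 or more (grey); boxes show the median and interquartile range of the peaks, and whiskers the 5th and 95th percentiles. The medians of the wide peaks lie between 21.0 and 21.8 in WT and between 24.4 and 24.6 in Med14 S983A.

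The strongest member, chr19:56337691-56339302, had 104.4, 101.9 and 90.1 FPKM in WT CON, Ex-4 and FSK and 120.3, 121.5 and 132.3 in Med14 S983A. The WT value was lowest under FSK and the mutant value highest under FSK. The next, chr7:144013014-144014748, had 94.9, 92.0 and 81.1 FPKM in WT and 108.2, 105.1 and 104.6 in Med14 S983A. In each of the 5 strongest members the 3 mutant values exceeded the 3 WT values, and WT FSK was the lowest of the 6.

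Wide peaks varied little over the 6 libraries. The range between the highest and lowest library, on log2(FPKM + 0.5), had a median of 0.42 in wide peaks, a 1.34-fold span. It was 0.57 in the shorter peaks nearest in mean FPKM and 0.78 in all peaks called in all 6 libraries. The 6 values stayed within 1.5-fold of each other in 69.5% of the wide peaks, against 51.9% and 35.7%. Within the 3 WT libraries, 1.90% of wide peaks spanned at least 2-fold, against 6.25% of the nearest shorter peaks. Wide peaks with exactly 6 merged calls had a median range of 0.39, and those with more had 0.48. The steadiness came with the number of reads: shorter peaks chosen for the same reads per peak, with a median length of 1059 bp and a higher median level of 38.7 FPKM, had a median range of 0.43, and 69.0% of them stayed within 1.5-fold. Whether length or signal goes with the small range cannot be told apart here.

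**Figure D2:**
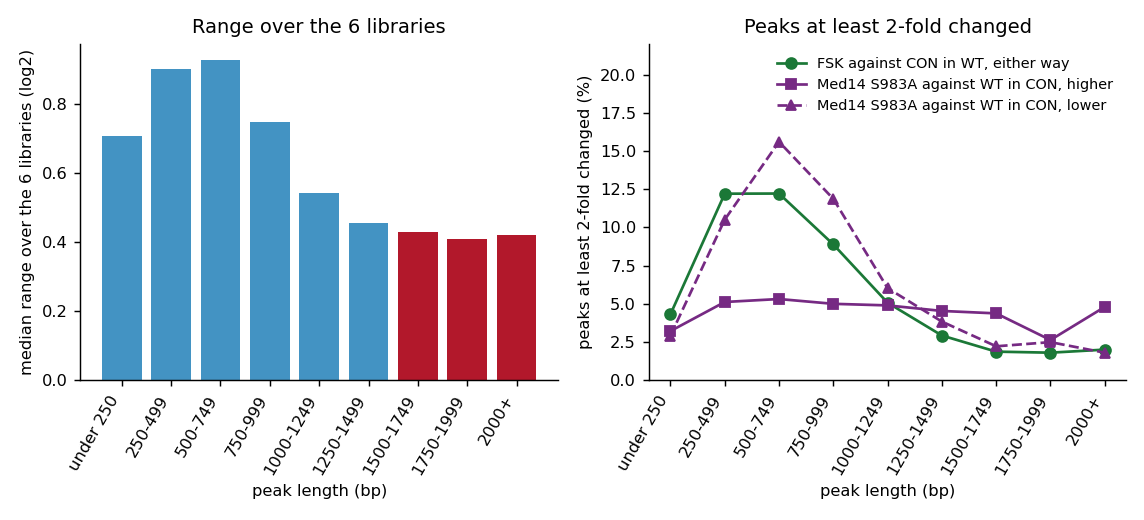
Median range over the 6 libraries on the log2 scale (left, bars) and percentage of peaks at least 2-fold changed (right, lines) by peak length, for peaks called in all 6 libraries; red bars are the wide classes. The median range is 0.93 in the class that starts at 500 bp and 0.43 in the class that starts at 1500 bp, and the 3 wide classes lie between 0.41 and 0.43.

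Across the lengths, the median range was 0.71 below 250 bp, 0.90 in the class from 250 bp and 0.93 in the class from 500 bp, and then declined to 0.45 in the class just below the limit. The 3 classes above the limit had 0.43, 0.41 and 0.42. The limit of 1500 bp therefore lay on a plateau rather than at a step, and peaks just shorter were nearly as steady. Level also went with the range among the members, though the mean level and the range come from the same 6 libraries. When they were put in 4 classes of equal size by mean FPKM, the lowest class, of 736 members from 1.10 to 15.1 FPKM, had a median range of 0.63, and each of the other 3 classes had 0.39.

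The first comparison was the effect of FSK on the accessibility of these peaks. In WT, 43 wide peaks (1.46%) were at least 2-fold higher under FSK and 12 (0.41%) were at least 2-fold lower. Over all peaks called in all 6 libraries the shares were 5.94% higher and 3.65% lower, so the wide peaks were below the background in both directions. Of the nearest shorter peaks, 119 were higher and 60 lower. In Med14 S983A, 42 wide peaks were higher and 10 lower, against a background of 4.56% and 4.28%. Of the nearest shorter peaks, 87 were higher and 62 lower in the mutant. Among shorter peaks of equal reads per peak, 2.72% were higher and 0.44% lower in WT, which is near the wide peaks for the share lower and above them for the share higher. In Med14 S983A 2.21% of these shorter peaks were higher and 0.85% lower, both above the 1.43% and 0.34% of the wide peaks.

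The median log2 difference of wide peaks under FSK was -0.082 in WT and -0.035 in Med14 S983A. For all peaks called in all 6 libraries it was -0.13 and -0.12, so wide peaks lay 0.053 and 0.089 above that median. The sign in Med14 S983A rested on the scaling, since with each library centred on its own median the wide-peak median was 0.073 there and -0.026 in WT. FPKM are relative to the reads in the peaks of a library, and a change shared by all peaks cannot be seen on this scale.

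**Figure D3:**
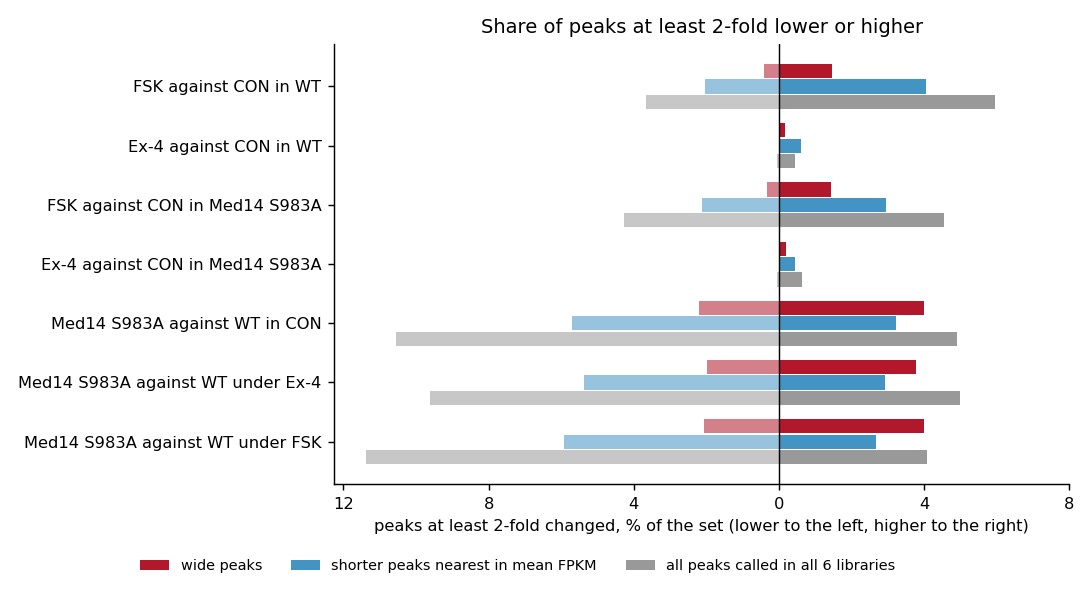
Percentage of peaks at least 2-fold lower (left of 0, pale) or higher (right of 0) in each of the 7 comparisons, for wide peaks, for the shorter peaks nearest in mean FPKM and for all peaks called in all 6 libraries. Under FSK the wide peaks have the smallest bars in both genotypes, and between genotypes 4.01% of wide peaks are higher and 2.21% lower in CON.

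The wide peaks that were at least 2-fold higher under FSK overlapped between the genotypes, whose comparisons use different libraries. Both genotypes shared 26 of them, 60.5% of the WT set and 61.9% of the Med14 S983A set. Over all peaks called in all 6 libraries the shared higher peaks were 61.1% and 79.7%, so the overlap of the wide peaks was near that share in WT and below it in the mutant. The 5 wide peaks lower in both were 41.7% and 50.0%, against 56.2% and 48.0%. No member was at least 2-fold higher in one genotype and 2-fold lower in the other. Such peaks were rare everywhere, with 1 in each direction among all 86465 peaks called in all 6 libraries. The difference between the responses, Med14 S983A minus WT, had a median of 0.051 over all wide peaks, with an interquartile range from -0.034 to 0.12. It reached 2-fold upward in 4 wide peaks (0.14%) and downward in 5 (0.17%), against a background of 0.383% and 1.02%.

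The largest difference in WT among peaks higher in both genotypes was at chr14:3280616-3282242. It had 2.13 FPKM in WT CON, 7.91 in WT Ex-4 and 41.2 in WT FSK, and 4.04, 10.6 and 39.8 in Med14 S983A. The log2 difference under FSK was 3.99 in WT and 3.15 in Med14 S983A, and Ex-4 lay between CON and FSK in both genotypes. At chr10:83865679-83867235 the values were 0.713, 2.03 and 12.04 FPKM in WT and 0.574, 1.18 and 3.47 FPKM in Med14 S983A, and the log2 difference under FSK was 3.37 and 1.89. CON was the lowest library and FSK the highest in both genotypes, and the mutant FSK level was far below the WT one.

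The peak chr4:177447330-177449534 was nearly closed in CON of both genotypes and in WT Ex-4. It had 0.171 FPKM in WT CON, from 57 reads (95% Poisson interval 0.129 to 0.221), 0.149 in WT Ex-4 and 5.27 in WT FSK. In Med14 S983A it had 0.138 FPKM in CON, 1.15 in Ex-4 and 5.67 in FSK. Ex-4 was thus at the CON level in WT and above it in the mutant, and FSK was the highest library of each genotype. This peak is a member because it was called in every library even at those low levels. Its mean of 2.09 FPKM, above the filter, rested mainly on the FSK libraries.

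At chr7:116774239-116776822 FPKM was 4.13, 9.25 and 28.1 in WT and 1.67, 4.72 and 17.9 in Med14 S983A. At chr9:82442307-82444711 it was 4.27, 9.17 and 26.3 in WT and 9.45, 24.3 and 63.6 in Med14 S983A. Both peaks had the order CON, Ex-4, FSK in each genotype, with the mutant below WT at the one and above it at the other.

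Lower values under FSK were fewer and smaller. At chr4:120731407-120733264 FPKM was 18.4, 10.1 and 5.29 in WT CON, Ex-4 and FSK and 6.05, 3.50 and 2.15 in Med14 S983A, a log2 difference under FSK of -1.71 and -1.31. At chr1:256845986-256847567, the strongest of the 5, it was 34.7, 31.1 and 12.8 in WT and 40.1, 29.6 and 15.5 in Med14 S983A. FSK was the lowest library in both peaks and both genotypes. The other 3, chr4:87073011-87075076, chr10:105816700-105818480 and chrX:38128659-38130262, had log2 differences from -1.69 to -1.04 in WT and from -1.72 to -1.11 in Med14 S983A, and the first of them and the one on chromosome 10 were under 3 FPKM in every library.

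**Figure D4:**
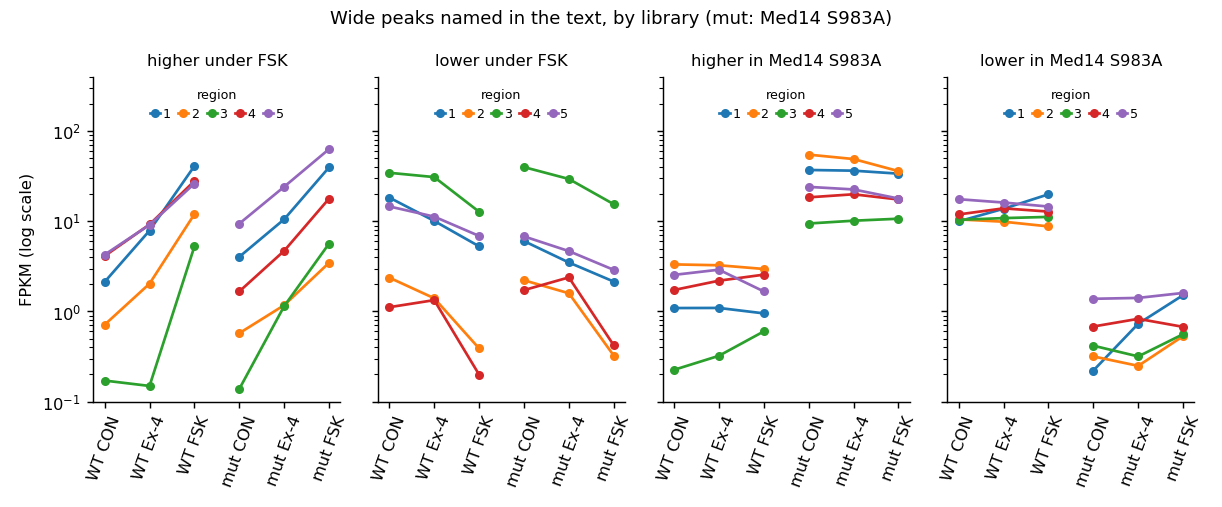
FPKM (log scale) of the 20 wide peaks named by the fixed rule in the 6 libraries, one line per peak and genotype, in 4 panels of 5 peaks (higher under FSK, lower under FSK, higher in Med14 S983A, lower in Med14 S983A). In the first panel all 5 peaks are highest under FSK in both genotypes, and in the last 2 panels the 3 libraries of one genotype lie above the 3 of the other at each peak.

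The peaks changed by FSK were weak and often composite members. The 43 higher in WT had a median mean level of 13.4 FPKM, against 23.0 over all wide peaks. Their median in WT CON was 6.86 FPKM. That library and WT FSK entered the choice, and both are part of the mean level. Of the 43, 24 were in the class of wide peaks with the lowest mean level, which also held 10 of the 12 lower peaks. More than 6 calls had been merged in 32 of the 43 (74.4%), against 47.6% of all wide peaks. With only the wide peaks of exactly 6 merged calls, 11 were higher and 1 lower in WT. Of the 17 that were higher in WT and under 2-fold in Med14 S983A, the mutant difference had a median of 0.78 and ranged from -0.37 to 1.00. Of the 16 that were higher in Med14 S983A and under 2-fold in WT, the WT difference had a median of 0.84 and ranged from 0.59 to 0.99.

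The comparison of Ex-4 with CON gave few changed wide peaks. The peaks named for Ex-4 were chosen after their values were seen. In WT 5 wide peaks were at least 2-fold higher and 0 lower, against a background of 0.448% and 0.0625%. In Med14 S983A 6 were higher and 0 lower, against 0.634% and 0.0497%. The median log2 difference of wide peaks was -0.0017 in WT and -0.024 in Med14 S983A. The 2 sets share 3 peaks, on chromosomes 7, 9 and 14, which are among those given above for FSK. In all 8 peaks that were higher under Ex-4 in either genotype, the FSK level exceeded the Ex-4 level in both, and 6 of the 8 were at least 2-fold higher under FSK in both genotypes. The same was not counted for other peaks, so it cannot be called a trait of wide peaks. Ex-4 and FSK share 1 CON library in each genotype.

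One of the 8, chr8:129824718-129826252, differed between genotypes. It had 4.59, 10.2 and 27.7 FPKM in WT CON, Ex-4 and FSK, and 1.05, 1.498 and 1.65 FPKM in Med14 S983A. The WT libraries increase in that order, and all 3 mutant libraries lie below the lowest WT one. At chr1:52754814-52756767 the values were 6.72, 11.1 and 30.0 FPKM in WT and 2.02, 6.82 and 21.3 in Med14 S983A, with the same order in both. At chr6:10811834-10813467 all values were at most 2.56 FPKM, and the log2 difference under Ex-4 was -0.25 in WT and 1.05 in Med14 S983A.

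Ex-4 values also stood between CON and FSK in most wide peaks that were at least 2-fold higher under FSK. Of the 43 higher under FSK in WT, 39 had an Ex-4 level between the CON and FSK levels of WT. The same held in Med14 S983A for 39 of the 42 higher there. This was not counted for peaks outside the wide set or for those lower under FSK, so whether it is particular to wide peaks is not known. The median Ex-4 difference was 0.42 for the WT set in WT and 0.46 for the Med14 S983A set in the mutant. These comparisons share the CON library, so a high or low CON value enters both.

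The last comparison was Med14 S983A against WT, made within each treatment so that the 3 comparisons use different libraries of the same lines. The wide peaks as a set lay higher in the mutant. Their median log2 difference was 0.19 in CON, 0.16 under Ex-4 and 0.24 under FSK. In the nearest shorter peaks it was 0.11, 0.089 and 0.15, and in all peaks called in all 6 libraries 0.051, 0.052 and 0.037. Above 0 in CON lay 80.0% of the wide peaks, 62.4% of the nearest shorter peaks and 54.0% of all peaks called in all 6 libraries. Of the wide peaks, 75.8% lay above 0 in all 3 comparisons, a share not counted for other peaks. Centring each library on its own median raised every difference by 0.12 in CON, 0.11 under Ex-4 and 0.17 under FSK, so the zero of the scale is not fixed by the data. Relative to the median of all peaks, wide peaks lay 0.14, 0.11 and 0.21 higher. Shorter peaks of equal reads per peak had medians of 0.16, 0.13 and 0.23, near those of the wide peaks.

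At the 2-fold rule, 118 wide peaks (4.01%) were higher in Med14 S983A and 65 (2.21%) lower in CON. The background was 4.90% higher and 10.5% lower, so the share of higher wide peaks was somewhat below it and the share of lower ones far below it. Shorter peaks of equal reads per peak had 1.97% higher and 2.31% lower, a share of lower peaks near that of the wide peaks and a smaller share of higher ones. Under Ex-4, 111 were higher and 58 lower, against 4.98% and 9.60%. Under FSK, 118 were higher and 61 lower, against 4.07% and 11.4%. With each library centred, the count under FSK became 163 higher and 48 lower, a share of 77.3% higher in place of 65.9%. The nearest shorter peaks had the opposite balance, with 95 higher and 168 lower in CON.

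The peaks past the fold recurred between treatments. All 3 comparisons shared 100 higher wide peaks, 84.7% of the 118 higher in CON, and 53 lower ones, 81.5% of the 65. Over all peaks called in all 6 libraries these shares were 58.9% and 73.0%. Of the nearest shorter peaks higher in CON, 57.9% were higher in all 3, and 78.0% of those lower in CON were lower in all 3.

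The largest difference was at chr4:145427138-145428788, with 1.09, 1.10 and 0.953 FPKM in WT CON, Ex-4 and FSK and 37.3, 36.6 and 33.9 in Med14 S983A, a log2 difference of 4.57 in CON. The groups did not overlap, and within either genotype the log2 differences under Ex-4 and FSK were between -0.13 and 0.0027. At chrX:119152570-119154277 the values were 3.33, 3.26 and 2.96 FPKM in WT and 55.1, 49.3 and 36.2 in Med14 S983A. At chr6:9634614-9636139 they were 0.225, 0.322 and 0.601 FPKM in WT, the first from 52 reads (95% Poisson interval 0.168 to 0.295), and 9.48, 10.2 and 10.7 in Med14 S983A. The peaks chr19:42873241-42874777 and chr5:61860825-61862715 had log2 differences of 3.09 and 3.02 in CON.

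In the other direction, chr3:6895668-6897454 had 10.0, 13.8 and 20.01 FPKM in WT and 0.221, 0.731 and 1.52 in Med14 S983A. Both genotypes had the order CON, Ex-4, FSK there, at levels far apart. At chr1:39717064-39718917 FPKM was 10.5, 9.93 and 8.81 in WT and 0.317, 0.249 and 0.533 in Med14 S983A, and at chr11:68434511-68436100 it was 10.4, 10.9 and 11.2 in WT and 0.417, 0.317 and 0.560 in Med14 S983A. In CON the log2 difference was -3.40 at chr1:123933404-123934913 and -3.27 at chr7:65274911-65276779. Each of these 5 peaks was above 8 FPKM in every WT library and below 2 FPKM in every Med14 S983A library.

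Genotype differences were uneven along the genome. The median difference of wide peaks in CON was 0.50 on chromosome 9, with 117 members, and 0.45 on chromosome 5, with 185. On the other chromosomes it lay between -0.084, on chromosome 12, and 0.26, on chromosome 14. Chromosomes 5 and 9 held 65 of the 100 wide peaks higher in all 3 treatments. Without these 2 chromosomes, 41 wide peaks were higher and 60 lower in CON, 42 and 53 under Ex-4 and 40 and 57 under FSK, so that lower ones outnumbered higher ones in each treatment, while the median in CON was still 0.18. The shorter peaks on chromosomes 5 and 9 had medians of 0.20 and 0.29, also the highest of all chromosomes.

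**Figure D5:**
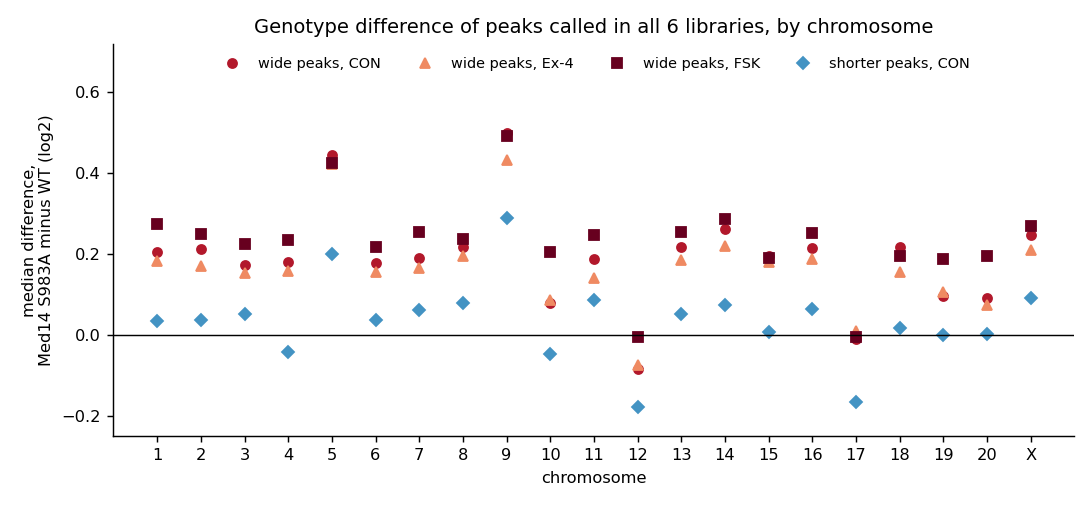
Median log2 difference, Med14 S983A minus WT, by chromosome for wide peaks in CON, Ex-4 and FSK and for shorter peaks called in all 6 libraries in CON. Chromosomes 5 and 9 have the highest medians in both kinds of peak, and wide peaks lie above shorter peaks on every chromosome.

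In windows of 10 Mb with at least 5 wide peaks, 218 in all, 6 had a median at least 1.5-fold above that of all wide peaks in all 3 treatments and 3 had one at least 1.5-fold below it. The higher ones were on chromosome 5 from 160 to 180 Mb and on chromosome 9 from 70 to 100 Mb and from 110 to 120 Mb. From 160 to 170 Mb on chromosome 5 all 15 wide peaks were higher in the mutant, between 0.99 and 2.87 in CON, and the shorter peaks there had a median of 0.91. The lower windows were on chromosome 4 from 160 to 180 Mb and on chromosome 15 from 0 to 10 Mb, where the wide medians in CON lay between -0.79 and -0.51. The higher windows held 46 of the 100 wide peaks higher in all 3 treatments, and the lower windows 2 of the 53 lower ones. Outside all 9 windows the median in CON was 0.19, and 64 wide peaks were higher and 62 lower.

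Weak members carried many of the genotype differences too. The class with the lowest mean FPKM held 55 of the 118 higher and 48 of the 65 lower wide peaks in CON, and the class with the highest held 9 and 1. The median difference, by contrast, was 0.19 in the lowest class and 0.21 in the highest. The small shift of the set was thus present at all levels, while differences past 2-fold were found mostly at low ones. The mean level comes from the same libraries, so a peak nearly closed in 1 genotype is drawn towards the lower classes.

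Wide peaks were spread over the genome. Their share of the peaks called in all 6 libraries was between 2.60% on chromosome 13 and 4.68% on chromosome 20. The median distance from one wide peak to the next was 351860 bp, and 51 of 2921 such distances were under 10 kb. The gap to the nearest peak of any kind had a median of 3468 bp for wide peaks and 1562 bp for the nearest shorter peaks. Both sets had a median of 8 other peaks within 25 kb. Calls joined into a peak are not counted as its neighbours, and wide peaks more often held joined calls. This count and the gap therefore cannot show whether the surroundings of wide peaks were denser.

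Across peaks, the libraries were more alike in wide peaks than in the nearest shorter ones. Pearson's r of log2 values between CON and Ex-4 of WT was 0.99 over the 2942 wide peaks and 0.98 over the shorter ones, and between CON and FSK 0.94 and 0.86. Between WT and Med14 S983A in CON it was 0.86 and 0.81. The points are peaks of the same libraries, which are not independent, and level is shared by all libraries. Of the 2942 wide peaks, 2676 (91.0%) were within 2-fold in all 7 comparisons, a share not counted for other peaks. The 6 libraries spanned at least 2-fold in 12.3% of the wide peaks and 23.8% of the nearest shorter peaks. The share was 38.0% over all peaks called in all 6 libraries and 12.3% in shorter peaks of equal reads per peak.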

How the data were processed

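ATAC-seq libraries of INS-1 cells were analysed, 1 for each of 6 conditions, grouped by the labels. Per the labels and the paper's methods, the authors used Trim Galore for trimming, bwa mem for alignment to rn6, samtools to remove mitochondrial, poorly mapped and duplicate reads, and macs2 for peaks. The deposited FPKM values over merged peaks came from HOMER, per the file header, with the libraries in which each peak was called. The paper's methods shift fragments for the Tn5 cut site after peak calling, ahead of footprinting, and do not say whether the FPKM come from shifted fragments.

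Values were taken as log2(FPKM + 0.5), peaks with a mean below 1 FPKM were left out, and a 2-fold difference was the size rule. A fold on this scale understates the change of low peaks. Reads in peaks were recovered from the steps of FPKM multiplied by length. All of the 6000 smallest values per library lay within 0.15 of a whole step, which may be a read or an end of a pair. Intervals on FPKM are 95% Poisson intervals. Each shorter peak nearest in mean FPKM was used once.

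The members and lists were chosen with earlier results of these data known. The named peaks are the 5 longest, the 5 strongest, the 5 with the largest FSK difference in WT, upward and downward, of those changed 2-fold in both genotypes, the 5 most different between genotypes in CON, upward and downward, of those 2-fold different under every treatment, and 3 peaks on each side of the length limit, of which some are given by their range. Peaks named for Ex-4 and the 10-Mb windows were chosen after the data were seen. Lists of genes were not applied, since the annotation of rn6 was not used here. Alternatives are given in the closing section. Software was matplotlib 3.10.9, scipy 1.17.1, numpy 2.4.6 and pandas 2.3.3 under Python 3.11.15, and the calculations were tested on simulated reads.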

Additional observations from a re-analysis of the deposited data

Results flagged for a closer look

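The mitochondrial chromosome, which the rule leaves out, still held 3 merged peaks of 3305 to 5136 bp, all longer than the limit, although mitochondrial reads had been filtered. They took between 0.455% of the reads in peaks in WT FSK and 1.09% in Med14 S983A CON. These peaks were noted because they carry signal outside the comparisons, and each of the 3 Med14 S983A libraries had a larger share than each of the 3 WT libraries. Outliers within a condition were not examined, since each condition had 1 library.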

How the results depend on the processing

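No paired analysis was possible because the groups share only 1 replicate number, with 1 library per condition, and no replicate could be left out. A fit of genotype over the 3 treatments, with treatment as a block, was not run. A pseudocount of 0.1, no filter, a mean of at least 3 FPKM and centring kept all 14 counts within 1.5 times. A pseudocount of 1 gave 7 lower under FSK and 2 higher under Ex-4 in WT, and quantile normalization gave 6 lower under FSK in Med14 S983A. A 1.5-fold rule raised the counts to 126 higher and 70 lower for FSK and 18 and 5 for Ex-4 in WT, 112 and 68 for FSK and 16 and 5 for Ex-4 in Med14 S983A, and 289 and 128 in CON, 264 and 125 under Ex-4 and 293 and 119 under FSK between genotypes. By construction a length limit of 1000 bp gave more, in the same order 360 and 185, 39 and 3, 290 and 197, 34 and 1, 655 and 661, 629 and 615, and 638 and 699. A limit of 2000 bp gave 7 and 3 for FSK and 2 higher for Ex-4 in WT, 8 and 1 for FSK and 3 higher for Ex-4 in Med14 S983A, and 24 and 9, 22 and 7, and 23 and 7 between genotypes. Between genotypes the higher wide peaks outnumbered the lower ones in all 3 treatments at 1500 and 2000 bp, and at 1000 bp only under Ex-4.

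Settings chosen after the data were seen were the removal of chromosomes 5 and 9, with 41 higher and 60 lower in the mutant in CON, 42 and 53 under Ex-4 and 40 and 57 under FSK, which turned the balance towards lower peaks, and the restriction to peaks of exactly 6 merged calls, with 1542 wide peaks. The latter gave 11 and 1 for FSK and 2 higher for Ex-4 in WT, 12 and 2 for FSK and 0 higher for Ex-4 in Med14 S983A, and 50 and 14, 41 and 15, and 48 and 17 between genotypes.

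Against shorter peaks of equal reads per peak, the wide-peak median minus the shorter one shrank to 0.033 in CON, 0.030 under Ex-4 and 0.0084 under FSK for genotype, to 0.0086 for FSK in Med14 S983A and to -0.0082 for the range over the 6 libraries. Shorter peaks were also chosen on the same chromosome, or all weighted in 20 bins of mean FPKM. Neither choice moved any of the 8 medians by more than their 95% order-statistic intervals over peaks allow. Those intervals treat peaks as independent, which they are not, and do not measure the spread between libraries. Centring each library changed the range of wide minus nearest shorter peaks from -0.14 to -0.081, and length limits of 1000 and 2000 bp gave -0.17 and -0.11. Depth limits the median wide peak little and the weakest members more, with as few as 41 reads in Med14 S983A CON. The unknown spread between libraries limits every comparison.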
